A study of Homo sapiens with 4 samples.

Results

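The endoplasmic reticulum (ER) folding and translocation genes are a list of 50 genes taken from what their products do and matched by gene symbol. They were 50 of the 19729 genes with a value in the files, and all 50 were found. HT-29 cells, a human colorectal cancer line with truncated APC that the labels give as microsatellite stable and BRAF-mutant, had been stably transduced with lentivirus carrying a doxycycline (DOX)-inducible shRNA. The shRNA was directed against APC (APC shRNA) or was non-silencing (NonS), and both conditions received 500 ng/ml DOX for 72 h before polyadenylated RNA was sequenced in biological duplicates, replicates I and II, which gave 4 libraries. Each condition is 1 transduced cell population with 1 shRNA, so any difference between the populations other than APC cannot be told apart from the silencing. The question was how the ER folding and secretory entry machinery was expressed after APC silencing.

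Proteins bound for secretion, the plasma membrane or the lysosome enter the ER through the SEC61 channel while they are still being made. There the signal peptidase removes the signal sequence, the oligosaccharyltransferase attaches N-glycans, and chaperones and disulfide isomerases fold the chain. Resident proteins that escape to the Golgi are fetched back by the KDEL receptors, and misfolded proteins are sent out to the proteasome. When folding demand exceeds capacity, the unfolded protein response raises the genes of this machinery through the transcription factors XBP1 and ATF6, and mucus-secreting colonic cells are known for a large ER.

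Because that response acts on short promoter elements, the promoters were searched for them first. The list holds genes that this response is known to raise, so its share of matches is a description and not an independent result. RefSeq promoters of build GRCh38.p14, from 250 bases before to 50 bases after a gene's start, were found for 45 of the 50 genes. PDIA3, RPN1, STT3B, KDELR2 and SPCS1 had no entry. The ER stress response element (ERSE) was searched on both strands as CCAAT and CCACG with 9 bases of any kind between them. It was present in 8 of the 45 genes (17.8%) and in 0.0916% of the 27305 genes with a promoter. Its sites are printed to show the letters of each match in these 8 genes. The capitals mark CCAAT and CCACG, the letters that define the match, and each site is read in the direction of the motif.

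HSPA5, chr9:125241391-125241409, minus strand: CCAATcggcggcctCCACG
HSP90B1, chr12:103930216-103930234, plus strand: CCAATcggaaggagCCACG
HSP90B1, chr12:103930321-103930339, minus strand: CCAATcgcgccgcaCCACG
CALR, chr19:12938384-12938402, minus strand: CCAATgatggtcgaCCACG
CANX, chr5:179698778-179698796, plus strand: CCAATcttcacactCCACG
PDIA6, chr2:10812853-10812871, minus strand: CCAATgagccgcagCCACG
XBP1, chr22:28800603-28800621, minus strand: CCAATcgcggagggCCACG
CRELD2, chr22:49918554-49918572, minus strand: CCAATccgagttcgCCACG
SERP1, chr3:150546710-150546728, plus strand: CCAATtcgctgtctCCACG

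A related element, ERSE-II, was searched as ATTGG and CCACG with 1 base between them. It was present in HYOU1, HERPUD1 and SDF2L1 and in 0.0696% of all genes with a promoter. The core of the unfolded protein response element, TGACGTGG, was present in 6 of the 45 genes (DNAJC10, HYOU1, KDELR3, SSR3, SSR4 and TXNDC5). Over all genes with a promoter the share was 0.927%. The HYOU1 match to this core overlaps an ERSE-II site. The core that TCF factors bind, CTTTGAT, was present in 0 of the 45 genes and in 3.18% of all genes with a promoter. At that share few of 45 genes would hold it, so the 0 says little. Sites outside this window were not searched, and the paper places its LARGE2 site in the first intron. A match is a description of letters and not a measured binding site. The 10 tested genes with ERSE or ERSE-II had a median difference between the conditions of -0.23 on the log2(value + 1) scale, with a range from -0.95 to 0.22. The 26 tested genes with a promoter entry and neither element had a median of -0.06 and a range from -1.17 to 0.61, which spans that of the first set. The 5 tested genes with no promoter entry, PDIA3 among them, had a median of -0.41 and a range from -1.84 to 0.08.

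The deposited values are whole numbers that behave as scores scaled for depth and transcript length and not as read counts, so they are given as scores and levels are compared between genes only on that scale. The number of reads behind a value is unknown. Of 12 markers of colonic epithelium, 8 were above 0 in every library (EPCAM, CDH1, KRT8, KRT18, KRT19, KRT20, VIL1 and LGALS4), and the 12 summed to between 4361 and 5414 in NonS and to between 4749 and 4947 in APC shRNA libraries. One of them was called, LGALS4, which fell from 557 and 646 to 175 and 147 (difference -1.90, adjusted p = 0.0423 in limma), and CDH1 was at 98 and 119 in NonS cells against 74 and 85 after APC silencing (adjusted p = 0.145 in limma). The part of these marker differences in the results for the ER genes was not tested. All 9 fibroblast and endothelial markers were listed at 0. CDX1, CDX2, CDH17 and GPA33 were at 4 or less in every library, too low to be tested here. CDX1 and GPA33 were at 2 in each NonS library and CDH17 at 1 and 2, against 0 in each APC shRNA library. CDX2 was at 0 in each NonS library against 2 and 4 after APC silencing. The paper's own comparison listed CDX1, CDH17 and GPA33 as lower. Of the leukocyte markers PTPRC and CD3E were at 0, CD68 was between 3 and 6, and LYZ, which HT-29 cells expressed strongly, was at 749 and 906 in NonS cells against 614 and 855 after APC silencing. APC itself was listed at 3 and 0 in NonS cells against 0 in each APC shRNA library, which is too low to be tested, while the Wnt target AXIN2 was listed at 16 and 22 in NonS cells against 124 and 178 after APC silencing. LARGE2, the gene of the study's interest, was at 2 and 1 in NonS cells and at 27 and 32 after silencing.

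**Figure D1:**
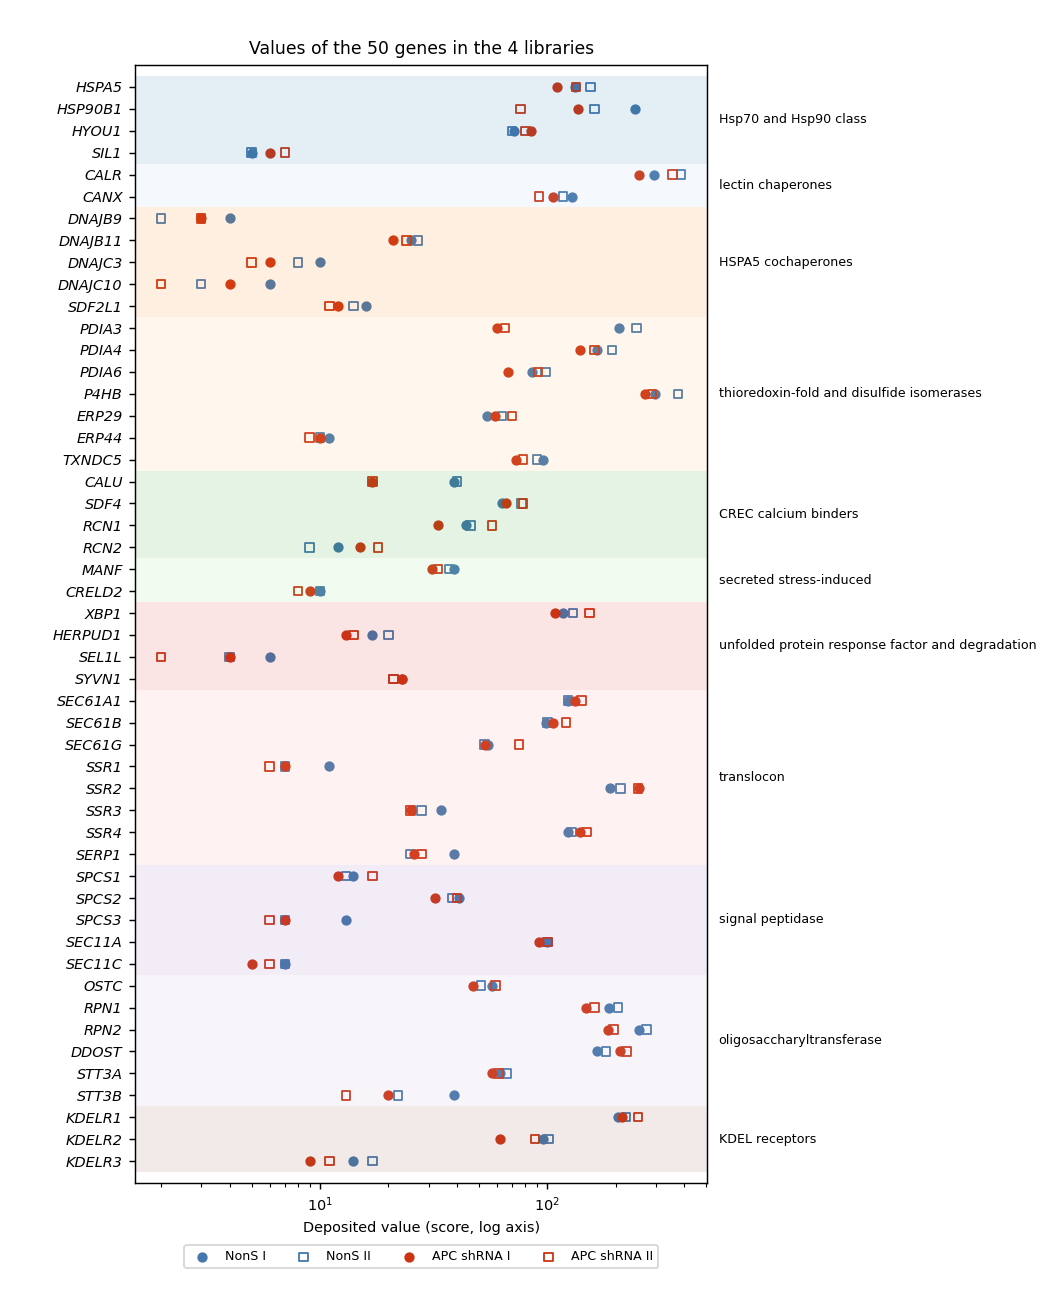
Deposited values (score, log axis) of the 50 genes in each library, with NonS in blue, APC shRNA in red, filled circles for replicate I and open squares for replicate II, and shading for the 11 subgroups. P4HB and CALR lie highest, and PDIA3 and CALU are the genes whose red and blue points are farthest apart for their spread.

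The 50 genes spanned a wide range, from means of 3 for DNAJB9 in NonS to 342 for CALR and 337 for P4HB. Testing was limited to genes whose 4 values had a mean of 10 or more, which holds for 41 of the 50 genes and for 5376 genes in all. The other 9 were SIL1, DNAJB9, DNAJC3, DNAJC10, CRELD2, SEL1L, SSR1, SPCS3 and SEC11C, whose single values lay between 2 and 13. The conditions were compared gene by gene on the log2(value + 1) scale with limma, with moderated variances. Benjamini-Hochberg adjustment was made over all genes tested, and a gene was called at an adjusted p under 0.05. In simulated data this fit called 17.0% of 2-fold changes, so a gene that was not called is not shown to be unchanged.

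After APC silencing, 2 of the 41 genes fell, PDIA3 and CALU, and 0 of the 41 rose. Over all genes tested 3.7% were called lower and 4.33% higher in limma, so the 4.88% of these genes called lower was close to the share over all genes. At an unadjusted p under 0.05, 4 of the 41 genes were higher and 9 lower, where 19.8% and 15.8% of all genes tested were. At an adjusted p under 0.01 with more than a 4-fold difference, 0 of all genes tested were called in either direction (0.0%). This is the study's own cut-off, at which the paper reported genes in both directions with DESeq2. The lowest adjusted p of the limma fit was 0.0423, so no gene could pass here, whatever its fold difference. In whole-culture RNA, a smaller share of cells of one kind and less RNA per cell cannot be told apart. Same-numbered libraries were also treated as pairs, with the replicate number as a block. In that fit 6 of the 41 genes were called lower (14.6%, against 9.3% over all genes) and 0 higher (9.73% over all genes), and the added genes were HSP90B1, RPN2, STT3B and KDELR3. With GC content correction as well, 14 were called lower and 4 higher, where 24.1% and 23.0% of all genes were called lower and higher. The genes this fit added as lower were CALR, SDF2L1, PDIA4, P4HB, TXNDC5, MANF, HERPUD1 and RPN1, with adjusted p from 0.0104 to 0.0404 in limma, and those it called higher were RCN2, SEC61G, SSR2 and DDOST, with adjusted p from 0.0103 to 0.0369.

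Of the 41 genes, 27 had a difference below 0 and 14 had one of 0 or above, with a median of -0.17 against 0.03 over all genes tested. Both APC shRNA libraries lay below both NonS libraries in 18 of the 41 genes (43.9%), against 27.5% of all genes tested, and above them in 7 of the 41 (17.1%), against 33.0%. With GC content correction the median of the 41 genes was -0.08. These shares describe the list and carry no test.

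PDIA3, also known as ERp57, is the disulfide isomerase that works with calreticulin and calnexin on glycoproteins and is part of the MHC class I peptide-loading complex. It lies on chromosome 15 of GRCh38 from 43746392 to 43773279 on the plus strand. It was listed at 207 and 247 in NonS cells against 60 and 65 after APC silencing, so the higher APC shRNA library was far below the lower NonS library. The mean fell from 227 ± 28.3 (SD, n = 2) to 62.5 ± 3.54 (SD, n = 2), 0.275 times the NonS mean. On the log2(value + 1) scale the difference was -1.84 (standard error 0.12, adjusted p = 0.0423 in limma), and it was -1.77 between the replicate I libraries and -1.91 between the replicate II libraries. It ranked 16 of the 5376 genes tested from the largest fall. With each library left out in turn the difference lay between -1.97 and -1.71, and the adjusted p in limma between 0.159 and 0.208, when 0 of all genes tested were called. PDIA3 shares 627 exonic bases with ELL3 on the opposite strand. ELL3 was listed at 16 and 12 in NonS cells against 7 and 6 after APC silencing, and the strand option of the counting is not given, so reads of the shared exons cannot be told apart. The part of the shared exons in the PDIA3 result was not tested.

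The other thioredoxin-fold genes did not pass the test with or without the block, and PDIA4, P4HB and TXNDC5 passed it with the block and GC content correction together (adjusted p = 0.0147, 0.0208 and 0.0171 in limma). PDIA4, an isomerase with several thioredoxin domains, was listed at 165 and 192 in NonS cells against 139 and 161 after APC silencing. P4HB, the classical protein disulfide isomerase and also a subunit of collagen prolyl hydroxylase, was listed at 298 and 376 in NonS cells against 269 and 288 after APC silencing. TXNDC5 was listed at 96 and 90 in NonS cells against 73 and 78 after APC silencing (adjusted p = 0.0988 in limma). In these 3 genes both APC shRNA libraries lay below both NonS libraries, by 0.25, 0.27 and 0.30 on the log2 scale, a small part of the difference of PDIA3. TXNDC5 shares 2658 of its 4387 exonic bases with the readthrough gene BLOC1S5-TXNDC5 on the same strand, so its value depends on how such reads were assigned. PDIA6, which also acts on the stress sensors, was listed at 86 and 98 in NonS cells against 67 and 91 after APC silencing. ERP44, which retains secretory proteins between ER and Golgi, was listed at 11 and 10 in NonS cells against 10 and 9 after APC silencing. ERP29, a family member without a redox-active site, was listed at 54 and 63 in NonS cells against 59 and 70 after APC silencing. In these last 3 genes the conditions overlapped, and ERP29 was the only one of the 7 thioredoxin-fold genes with a positive difference (0.14).

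CALU encodes calumenin, a calcium-binding protein of the secretory pathway in the CREC family of EF-hand proteins. It lies on chromosome 7 of GRCh38 from 128739292 to 128771807 on the plus strand. It was listed at 39 and 40 in NonS cells against 17 in each APC shRNA library. The replicates were nearly equal and the conditions were far apart, with means of 39.5 ± 0.707 (SD, n = 2) and 17 ± 0 (SD, n = 2), 0.430 times the NonS mean. The log2 difference was -1.17 (standard error 0.05, adjusted p = 0.0423 in limma). With each library left out in turn it lay between -1.19 and -1.15, and the adjusted p in limma between 0.148 and 0.208.

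The other CREC genes did not pass the test with or without the block. RCN2 was listed at 12 and 9 in NonS cells against 15 and 18 after APC silencing, which lay above, with a log2 difference of 0.61 (95% interval 0.03 to 1.19, adjusted p = 0.131 in limma). It was called higher with GC content correction (difference 0.81, adjusted p = 0.0368 in limma), a fit that called 8.15% of all genes higher and 8.93% lower. RCN1 was listed at 44 and 46 in NonS cells against 33 and 57 after APC silencing, equal means with a wide spread after silencing. SDF4, the CREC protein of the Golgi lumen, was listed at 63 and 77 in NonS cells against 66 and 78 after APC silencing, and the conditions overlapped. RCN1 shares 935 exonic bases with AL035078.4 on the same strand.

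**Figure D2:**
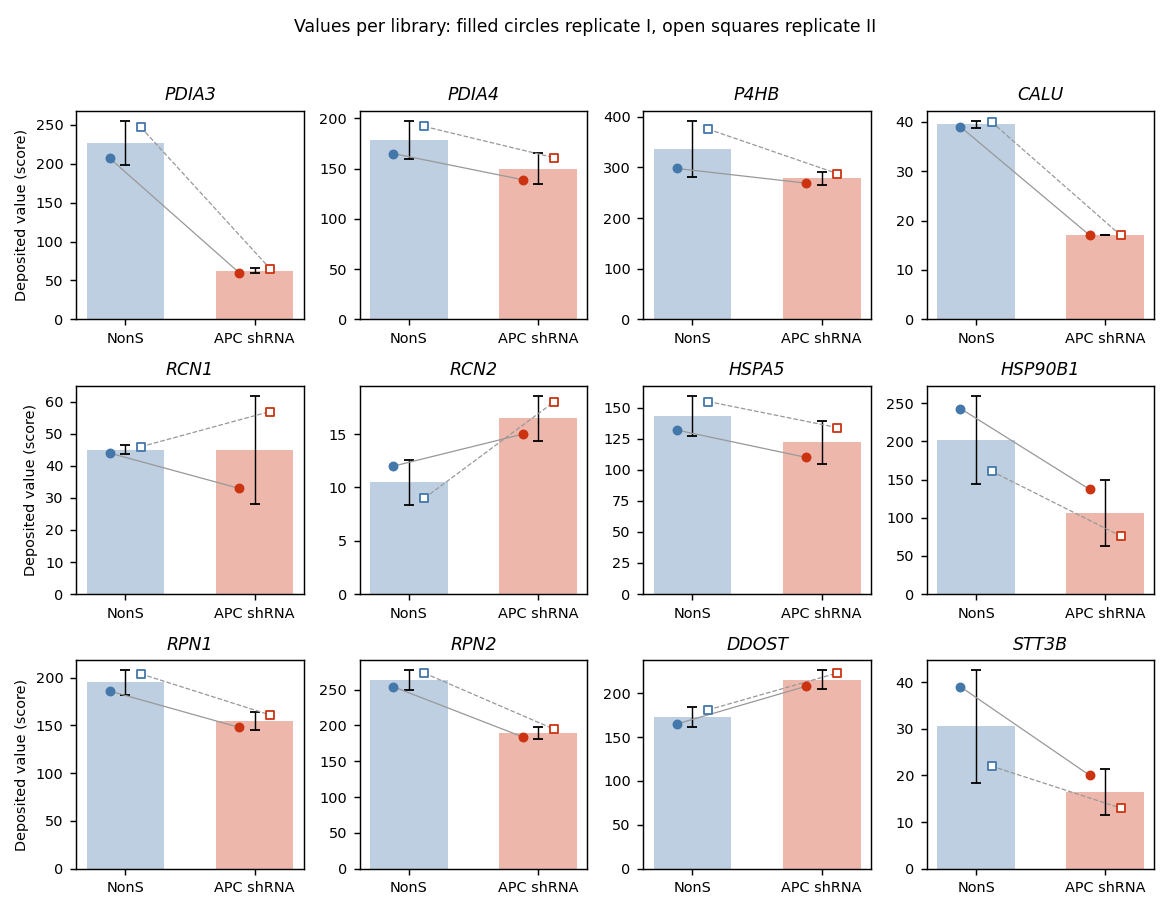
Deposited values (score, vertical axis from 0) of 12 genes in NonS (blue) and APC shRNA (red) libraries, with bars for the mean of 2 libraries, error bars for the SD, filled circles for replicate I, open squares for replicate II and grey lines joining same-numbered libraries. PDIA3 and CALU fell in both pairs, RCN2 and DDOST lay higher in both pairs, and HSP90B1 and STT3B were lower in both pairs with replicate II below replicate I.

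Among the core chaperones no gene was called in the unblocked fit. HSPA5 (BiP), the Hsp70 of the ER and the usual readout of the unfolded protein response, was listed at 132 and 155 in NonS cells against 110 and 134 after APC silencing. The conditions overlapped, and the log2 difference of -0.23 had a 95% interval from -0.71 to 0.24. HSP90B1 (GRP94), on chromosome 12 of GRCh38 from 103930107 to 103953645 and the ER Hsp90 that folds integrins and Toll-like receptors, was listed at 243 and 161 in NonS cells against 137 and 76 after APC silencing. Both APC shRNA libraries were lower, but the replicates differed almost as much as the conditions. Its log2 difference of -0.95 (95% interval -2.23 to 0.34) had an adjusted p of 0.214 in limma without the block and of 0.0485 with it, since it was -0.82 between the replicate I and -1.07 between the replicate II libraries. HYOU1, a large Hsp70 relative that exchanges nucleotide on HSPA5, was listed at 71 and 70 in NonS cells against 85 and 80 after APC silencing. This was the only tested chaperone of its class above NonS in both libraries (difference 0.22, adjusted p = 0.113 in limma), and 666 of its exonic bases are shared with an antisense gene. SIL1, the other nucleotide exchange factor, was listed at 5 in each NonS library against 6 and 7 after APC silencing and was not tested.

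The lectin chaperones calreticulin and calnexin, which hold glycoproteins while PDIA3 acts on them, were not called with or without the block. CALR was listed at 296 and 388 in NonS cells against 254 and 355 after APC silencing, and the conditions overlapped. It was called lower with the block and GC content correction together (adjusted p = 0.0404 in limma). CANX was listed at 128 and 117 in NonS cells against 106 and 92 after APC silencing, and the conditions did not overlap (difference -0.31, adjusted p = 0.162 in limma). PDIA3 at 0.275 of its NonS mean therefore stood beside CALR at 0.890 and CANX at 0.808 of theirs.

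The J-domain cochaperones of HSPA5 were mostly low. DNAJB11 was listed at 25 and 27 in NonS cells against 21 and 24 after APC silencing, and SDF2L1, which forms a complex with it, at 16 and 14 in NonS cells against 12 and 11 after APC silencing. Both were lower in both APC shRNA libraries without passing the test (adjusted p = 0.239 and 0.115 in limma). SDF2L1 passed it with the block and GC content correction together (adjusted p = 0.0131 in limma). DNAJB11 shares 451 exonic bases with AC068631.2 on the same strand, which was listed at nearly the same values, 25, 29, 22 and 25. DNAJC3, the inhibitor of the kinase PERK also called p58IPK, was listed at 10 and 8 in NonS cells against 6 and 5 after APC silencing and was not tested. DNAJB9 and DNAJC10 were at 6 or less in every library.

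Of the unfolded protein response and degradation genes, 0 of 3 tested were called with or without the block. HERPUD1 was called lower with the block and GC content correction together (adjusted p = 0.0177 in limma). XBP1, whose RNA is spliced by IRE1 to give the active factor, was listed at 117 and 130 in NonS cells against 108 and 153 after APC silencing, and values per gene do not separate the spliced form. HERPUD1, a membrane protein of ER-associated degradation that the response induces strongly, was listed at 17 and 20 in NonS cells against 13 and 14 after APC silencing, lower in both (difference -0.42, adjusted p = 0.103 in limma). SYVN1, the ubiquitin ligase HRD1, was listed at 23 and 21 in both conditions. Its partner SEL1L was listed at 6 and 4 in NonS cells against 4 and 2 after APC silencing and was not tested. MANF, a secreted protein that the response induces, was listed at 39 and 37 in NonS cells against 31 and 33 after APC silencing, lower in both (difference -0.24, adjusted p = 0.112 in limma), and CRELD2, induced with it, at 10 in each NonS library against 9 and 8 after APC silencing. With the block and GC content correction together MANF was called lower (adjusted p = 0.0251 in limma).

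The translocon genes were the subgroup with the highest median difference without correction, 0.18 over 7 genes tested. With GC content correction their median was 0.08, below the 0.13 of the signal peptidase genes. With or without the block 0 of the 7 were called, while SEC61G and SSR2 were called higher with the block and GC content correction together. SEC61A1, the channel itself, was listed at 123 in each NonS library against 132 and 141 after APC silencing. SEC61B and SEC61G, its small subunits, were listed at 99 and 100 and at 55 and 53 in NonS cells against 106 and 121 and at 53 and 75 after APC silencing. SSR2 and SSR4, subunits of the translocon-associated TRAP complex, were listed at 189 and 210 and at 123 and 128 in NonS cells against 254 and 250 and at 139 and 149 after APC silencing. SEC61A1, SEC61B, SSR2 and SSR4, 4 of the 7 tested, were higher in both APC shRNA libraries, which held for 33.0% of all genes tested. SSR2 had the largest of these differences (0.34, 95% interval 0.09 to 0.59, adjusted p = 0.0956 in limma). The TRAP subunit SSR3 went the other way, at 34 and 28 in NonS cells against 25 in each APC shRNA library (difference -0.29, adjusted p = 0.195 in limma), and SSR1 was listed at 11 and 7 in NonS cells against 7 and 6 after APC silencing and was not tested. SERP1, a translocon-associated protein of stressed cells, was listed at 39 and 25 in NonS cells against 26 and 28 after APC silencing. Summed over the 8 genes, the translocon values were 673 and 674 in NonS and 742 and 795 in APC shRNA libraries, while the 7 thioredoxin-fold genes, PDIA3 included, summed to 917 and 1076 in NonS and to 677 and 762 in APC shRNA libraries.

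In the 3 signal peptidase genes tested the conditions overlapped. The catalytic subunit SEC11A was listed at 100 in each NonS library against 92 and 100 after APC silencing (95% interval of the log2 difference -0.28 to 0.16). SPCS1 and SPCS2, accessory subunits, had differences of 0.08 and -0.14. SPCS1 shares 2698 of its 5324 exonic bases with NEK4 on the opposite strand. SPCS3, an essential subunit, was listed at 13 and 7 in NonS cells against 7 and 6 after APC silencing, and SEC11C, the other catalytic subunit, at 7 in each NonS library against 5 and 6, which did not overlap. Neither was tested.

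Of the 6 oligosaccharyltransferase subunits among the 50 genes, 0 were called without the block. With it 2 were called lower, RPN2 and STT3B, where 9.3% of all genes tested were called lower. Among subunits outside the 50 genes, OST4 was called higher without the block (adjusted p = 0.0465 in limma). MAGT1 was listed at 19 in each NonS library against 9 and 11 after APC silencing and was not called (adjusted p = 0.0503 in limma). RPN2 (ribophorin II), on chromosome 20 of GRCh38 from 37178410 to 37241623, was listed at 254 and 273 in NonS cells against 184 and 195 after APC silencing, lower in both, with a log2 difference of -0.47 (95% interval -0.70 to -0.24). Its adjusted p in limma was 0.0596 without the block and 0.0479 with it, and between 0.0362 and 0.0424 with median-of-ratios scaling, scaling to equal totals, robust moderation or a transcript length correction. RPN1 (ribophorin I) was listed at 186 and 204 in NonS cells against 148 and 161 after APC silencing, also lower in both (difference -0.33, adjusted p = 0.108 in limma). DDOST, which with the ribophorins makes up the core that both forms of the enzyme share, was listed at 165 and 181 in NonS cells against 208 and 223 after APC silencing, higher in both (difference 0.32, 95% interval 0.06 to 0.58, adjusted p = 0.109 in limma). With the block and GC content correction together RPN1 was called lower and DDOST higher (adjusted p = 0.0104 and 0.0369 in limma). DDOST shares 427 of its 2721 exonic bases with PINK1-AS on the same strand.

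Of the alternative catalytic subunits, STT3A, which acts at the translocon, was listed at 62 and 66 in NonS cells against 57 and 61 after APC silencing (difference -0.12, 95% interval -0.34 to 0.11). STT3B, which acts on sites that STT3A skips and lies on chromosome 3 of GRCh38 from 31532638 to 31637622, was listed at 39 and 22 in NonS cells against 20 and 13 after APC silencing. Both APC shRNA libraries were lower, and replicate II was below replicate I in both conditions. Its difference of -0.82 had an adjusted p of 0.241 in limma without the block and of 0.0483 with it. OSTC, the subunit that ties the STT3A form to the translocon, was listed at 57 and 51 in NonS cells against 47 and 59 after APC silencing and overlapped.

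Of the KDEL receptors, 0 of 3 were called without the block and 1 with it, KDELR3, where 9.3% of all genes tested were called lower. KDELR1 was listed at 204 and 222 in NonS cells against 213 and 251 after APC silencing, and the conditions overlapped. KDELR2 was listed at 96 and 101 in NonS cells against 62 and 88 after APC silencing (difference -0.41, adjusted p = 0.253 in limma). KDELR3, the receptor with the lowest values, on chromosome 22 of GRCh38 from 38468062 to 38483447, was listed at 14 and 17 in NonS cells against 9 and 11 after APC silencing. It was lower by 0.58 on the log2 scale in both pairs, with an adjusted p in limma of 0.109 without the block and of 0.0468 with it.

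Several of the genes differed between replicates I and II in the same way in both conditions. Replicate II was above replicate I in both conditions in 21 of the 41 genes, among them CALR, P4HB and PDIA4, and below in both in 7, among them HSP90B1, STT3B and CANX. The differences between replicates had a Pearson correlation of 0.566 between the conditions across the 41 genes, given as a description, since the genes share libraries, against 0.724 across all genes tested. In 22 of the 41 genes the difference between conditions was larger than the replicate difference in either condition. The same held for 55.1% of all genes tested. The GC content of the longest transcript, which ran from 36.1% to 65.5% over the 41 genes, had a Spearman correlation of 0.119 with the difference between conditions in these genes and of 0.24 across the genes tested that had a GC content. PDIA3 and CALU had a GC content of 43.8% and 41.5%, and with GC content correction their differences were -1.72 and -0.99.

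**Figure D3:**
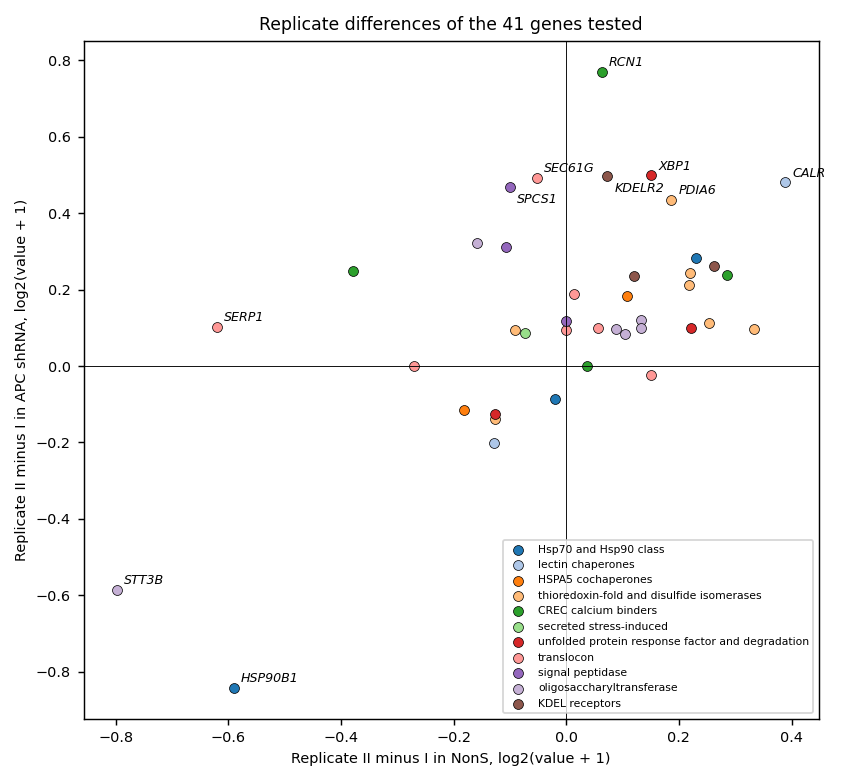
Replicate II minus replicate I on the log2(value + 1) scale in NonS (horizontal axis) and in APC shRNA (vertical axis) for the 41 genes tested, coloured by subgroup, with names where either difference is beyond 0.4. HSP90B1 and STT3B lie at the lower left, with replicate II below replicate I in both conditions, and RCN1 lies high, with a replicate difference in the APC shRNA libraries and little in NonS.

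Genes that work beside these in the same pathway were taken from 6 lists with 139 genes, of which 96 were tested. Of the 96, 2 rose (2.08%, against 4.33% over all genes tested) and 1 fell (1.04%, against 3.7%) in limma. Their median difference was -0.002. EMC4, a subunit of the ER membrane protein complex that inserts membrane proteins, was listed at 39 and 38 in NonS cells against 51 in each APC shRNA library (difference 0.40, adjusted p = 0.049 in limma). OST4, a small subunit of the oligosaccharyltransferase, was listed at 82 and 87 in NonS cells against 122 in each APC shRNA library (difference 0.53, adjusted p = 0.0465 in limma). MCFD2, which with LMAN1 carries coagulation factors out of the ER, was listed at 21 in each NonS library against 14 in each APC shRNA library (difference -0.55, adjusted p = 0.0428 in limma). With the replicate block 4 rose (4.17%, against 9.73% over all genes tested) and 5 fell (5.21%, against 9.3%). Fits without any 1 of the 4 libraries leave a single library in 1 condition and were too weak to judge these calls.

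By list, 0 of 8 stress sensors and effectors tested, 0 of 16 genes of the degradation machinery and 0 of 13 folding oxidases and prolyl isomerases were called in the unblocked fit. At an unadjusted p under 0.05, which 19.8% of all genes tested passed as higher and 15.8% as lower, the stress list had 4 higher (ATF6B, CREB3, MBTPS1 and PPP1R15A) and 1 lower (CREB3L1), the degradation list 1 higher (FAF2) and the oxidase and isomerase list 3 lower (PRDX4, PDIA5 and P4HA1). ATF6B, a relative of the stress sensor ATF6, was at 56 and 60 in NonS cells against 75 and 77 after APC silencing (adjusted p = 0.0642 in limma). CREB3, another transcription factor held in the ER membrane, was at 23 and 24 in NonS cells against 31 and 30 after APC silencing (adjusted p = 0.0589 in limma), and MBTPS1, the protease that releases such factors, at 32 and 34 against 40 and 47 (adjusted p = 0.116 in limma). PPP1R15A (GADD34), the phosphatase subunit that restarts translation after stress, was listed at 22 and 32 in NonS cells against 44 and 53 after APC silencing (adjusted p = 0.117 in limma). DDIT3 (CHOP), the stress factor downstream of PERK, was listed at 9 and 11 in both conditions, and ATF4 at 143 and 150 in NonS cells against 141 and 140 after APC silencing. CREB3L1, an ER-membrane transcription factor of secretory cells, was listed at 41 and 37 in NonS cells against 22 and 18 after APC silencing (adjusted p = 0.0545 in limma and 0.0468 with the block). P4HA1, the catalytic partner of P4HB in collagen prolyl hydroxylase, was listed at 21 and 30 in NonS cells against 8 and 11 after APC silencing (adjusted p = 0.0755 in limma and 0.0468 with the block). The genes of these 3 lists that are named here were chosen after their values were seen. At the same unadjusted threshold, the targeting and translocation accessories had 4 of 18 tested higher and 2 lower. The N-glycan attachment and trimming list had 3 of 20 higher and 1 lower, and the vesicle coats 3 of 21 higher and 3 lower.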

How the data were processed

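Polyadenylated RNA was sequenced from HT-29 cells in 4 libraries, which were grouped by their titles. The authors quality-filtered and polyA-trimmed the reads, mapped them with TopHat2 to human genome assembly 38 (the submitters' processing notes name hg19), assigned them to genes with htseq-count and GENCODE v29 and compared the conditions with DESeq2 1.4.1. For each library, the authors deposited a table with 1 whole number a gene. The deposited values were taken as a score, on a scale not given in the sources used here, and no count model was fitted: between replicates, genes whose 2 values summed to between 10 and 39 varied 0.474 (NonS) and 0.345 (APC shRNA) times as much as Poisson counts, and the sum of value times longest transcript length in kb lay between 980841 and 984873 in every library, while plain sums lay between 398338 and 413595. Depth in reads is unknown, and rounding limits low values. The table of the authors' own comparison (mean, log2 fold change, ratio and adjusted p) was not used.

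log2(value + 1) was fitted with limma 3.58.1 in R 4.3.3 (mean-variance trend, unscaled values, genes with a mean of at least 10, two-sided, Benjamini-Hochberg adjustment over 5376 genes). With 2 libraries against 2, an exact permutation test of a single gene cannot go below p = 0.333. The series description says that the experiment was repeated, so replicate numbers were taken as pairs, and replicate II minus replicate I in NonS correlated with the same in APC shRNA (0.724 over all genes). The unblocked fit was first tested on simulated data in which 200 of 5376 genes were raised. It called 0.0% of the genes raised 1.5-fold, 17.0% of those raised 2-fold and 71.0% of those raised 4-fold. A gene that was not called is therefore not shown to be unchanged. P-values measure the spread between these duplicates. Alternatives cover scaling, pseudocount, filters, moderation, GC content and length corrections (loess, span 0.5), the replicate block, thresholds and each library left out. The genes and lists were chosen with earlier results of these data known. One item of the marker lists is not reported here. All 50 genes are given, and every gene of the added lists called in the unblocked fit is named. Positions, lengths and overlaps come from GENCODE v29 (GRCh38), and promoters from RefSeq. Summaries used Python 3.11.15, pandas 2.3.3 and scipy 1.17.1.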

Additional observations from a re-analysis of the deposited data

How the results depend on the processing

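The values are rounded scores with 2 libraries a condition, which limits what can be said of genes with low values. Of the 50 genes, 2 were called lower and 0 higher, in 2 subgroups and 0 subgroups. The replicate block moved the lower calls to 6 in 5 subgroups, where 9.3% of all genes tested were called lower. The replicate block with GC content correction moved them to 14 in 9, with 4 higher in 3. In that fit 24.1% and 23.0% of all genes tested were called lower and higher. GC content correction alone called 1 higher, RCN2, in 1 subgroup, and 3 lower in 3 subgroups. Lower calls were also 3 with median-of-ratios scaling, scaling to equal totals, robust moderation and transcript length correction, and in these 5 settings the added gene was RPN2. At an adjusted p under 0.01, 0 were called, which holds for any list of these genes. The lowest adjusted p over all genes tested was 0.0423 in limma, the value of PDIA3 and CALU. Leaving out any 1 library leaves a single library in 1 condition, a fit too weak to judge calls. PDIA3 and CALU kept their direction under all alternatives and their call under the scalings, pseudocounts, filters, moderation, corrections and both fits with the block (adjusted p from 0.00181 to 0.0481 and from 0.00144 to 0.0481). The median over the genes tested moved by less than the replicate spread of 0.136. No called gene reversed. Of 776 values compared over genes and alternatives, 26 were stronger and 10 weaker, and 12 uncalled genes changed sign in at least 1 alternative, 27 times in all, leaving out differences that round to 0.000.

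The added lists had 2 genes called higher and 1 lower. Higher calls were 1 with scaling to equal totals, 6 with a total of at least 1, 1 with at least 10 in every library, 0 with a mean of at least 8, 5 with GC content correction, 4 with the replicate block and 21 with the replicate block with GC content correction. Lower calls were 5 with median-of-ratios scaling, 4 with scaling to equal totals, 4 with upper-quartile scaling, 2 with a pseudocount of 0.1 and 2 with 5, 4 with a total of at least 1, 4 with robust moderation, 3 with GC content correction, 4 with transcript length correction, 5 with the replicate block and 19 with the replicate block with GC content correction. Both were 0 with over 1.5-fold added, and also at an adjusted p under 0.01, which no gene of the main fit reached. Fits without any 1 library were too weak to judge calls. Over all genes tested the replicate block called 9.73% higher and 9.3% lower, against 4.17% and 5.21% of the added genes tested. With GC content correction as well it called 23.0% and 24.1%, against 21.9% and 19.8%. GC content correction alone called 8.15% of all genes tested higher and 8.93% lower. For the changes in the counts of the added lists the cause was not tested.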
